A study of Mus musculus with 12 samples.

Results

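The receptor genes described here are the class II odorant receptors of chromosome 19, taken as every gene of the expression table with a symbol from Olfr1417 to Olfr1505 and no pseudogene suffix. The rule found 60 genes among 46297 in the table. All 60 lie on chromosome 19 and all 60 are annotated as protein coding in GENCODE M21. RNA came from dissected olfactory mucosa of 12 age-matched males (strain 129S6;C57BL/6J, postnatal day 30), and total RNA depleted of ribosomal RNA was sequenced. In 6 animals enhancer A (eA) had been deleted, 912 bp of chromosome 7 from 102509701 to 102510612, and 6 were wildtype. The labels name no transgene or agent, and do not say whether both chromosomes carried the deletion.

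Odorant receptors are G protein-coupled receptors in the cilia of olfactory sensory neurons, and each mature neuron expresses essentially a single receptor gene from a single allele. Mouse receptors fall into class I, clustered on chromosome 7, and class II, which fills many clusters across the genome. Choice of a receptor depends on enhancers, on the LIM-homeodomain factor Lhx2 with its partner Ldb1, and on EBF factors. The series title presents enhancer A as an element for class I receptors. The chromosome 19 cluster holds class II genes on a chromosome other than that of the element.

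Of the 60 genes, 55 had a mean over all 12 libraries of at least 10 and were tested, and none of the 55 passed the test for a difference between the genotypes (limma, adjusted p under 5% over all genes). Lower in the deletion were 0 of 55, against 0.341% of all 19373 genes tested, and higher were 0 of 55, against 0.031%. At an unadjusted p under 0.05 there were 8 by limma, 8 by edgeR and 5 by DESeq2, the last run without the limit on the mean. Log2 changes of the deletion over wildtype ran from -0.44 to 0.58, with a median of 0.07, beside a median of 0.0087 over all genes. For 53 of the 55 the 95% interval of the change lay inside 2-fold in both directions, as it did for 90.8% of all genes. Class I receptors, the class the element is named for, had a median log2 change of -0.92, and 62 of the 114 tested fell and 2 rose by the same test.

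The 60 genes span 2095064 bp, from Olfr1417 (ENSMUSG00000048292.3, 11826803 to 11839219, minus strand, GRCm38) to Olfr1505 (ENSMUSG00000062314.3, 13913530 to 13921866, plus strand). Genes of other families divide them. A first block of 17 members lies before Fam111a, 2 members lie between Glyat and Keg1, and 41 members follow Zfp91. A further 3 receptor genes with numbers outside the range (Olfr76, Olfr235 and Olfr262) and 24 receptor symbols with a pseudogene suffix lie in the same span. 1 member, Olfr1423, overlaps another annotated gene. 33 members are on the plus strand and 27 on the minus strand.

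Many members have a close relative in the set, and reads that match both cannot be told apart. Between the open reading frames of 2 members the median identity was 57.8% over 1770 pairs, but the median identity of a member to its closest relative in the set was 87.5%. For 23 members it was above 90%. The most alike were Olfr1502 and Olfr1505 at 97.5%, Olfr1471 and Olfr1474 at 97.1%, Olfr1472 and Olfr1475 at 96.9% and Olfr1417 and Olfr1418 at 96.1%. In 24 members more than 5% of the 50-base windows of the longest transcript also occurred in another receptor gene, up to 42.4% in Olfr1502, and in 12 members none did. The sources used here do not give how reads matching several genes were counted, so values of these pairs are uncertain.

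Levels differed far more between members than between genotypes. Since longer gene models collect more reads, levels are compared as normalized counts per kb of annotated exon, where a normalized count is a read count scaled for the depth of its library. Among tested members the highest mean was 18.6 times the lowest on this scale. The 3 highest were neighbours in the first block. Olfr1428 stood at 98.6 ± 13.4 per kb in the deletion and 91.8 ± 11.9 per kb in wildtype (SD, n = 6 each here and below). Olfr1427 stood at 89.0 ± 12.3 per kb in the deletion and 82.0 ± 12.2 per kb in wildtype, and Olfr1426 at 84.5 ± 13.9 per kb in the deletion and 74.6 ± 13.3 per kb in wildtype. The SDs of these 3 genes overlap in both genotypes. As all 3 were measured in the same libraries, this overlap does not decide their order, which was not tested. Olfr1448 followed with 69.6 ± 5.82 per kb in the deletion and 63.9 ± 6.89 per kb in wildtype. Olfr1420 had 65.7 ± 7.99 per kb in the deletion and 64.7 ± 8.53 per kb in wildtype, and Olfr1443 had 57.8 ± 2.79 per kb in the deletion and 53.0 ± 7.44 per kb in wildtype. The ligands of these receptors are not given in the files and are not assigned here.

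Olfr1440 (ENSMUSG00000046650.4, 12387279 to 12401584) encodes a receptor known in mice to respond to the musk odorant muscone. It had the highest normalized count of the 60 and carried 7.87% of their summed signal. Deletion libraries ran from 363 to 517 normalized counts with a median of 410.3, and wildtype libraries from 351 to 469.8 with a median of 391. The groups overlapped over most of their range. The log2 change was 0.11 ± 0.09 (SE), with a 95% interval of -0.09 to 0.31 and an adjusted p of 0.815 by limma. Its annotated exons sum to 7609 bp, so that per kb it stood at 56.6 ± 8.16 in the deletion and 52.3 ± 5.12 in wildtype, below the 6 genes named before it. Olfr235, a receptor gene of the same span outside the number range, averaged 273 ± 39.1 normalized counts in the deletion and 249 ± 34.7 in wildtype (adjusted p 0.811, limma). Olfr76 averaged 74.8 ± 16.7 in the deletion and 60.7 ± 7.74 in wildtype (adjusted p 0.751, limma), and Olfr262 was too low to test.

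**Figure D1:**
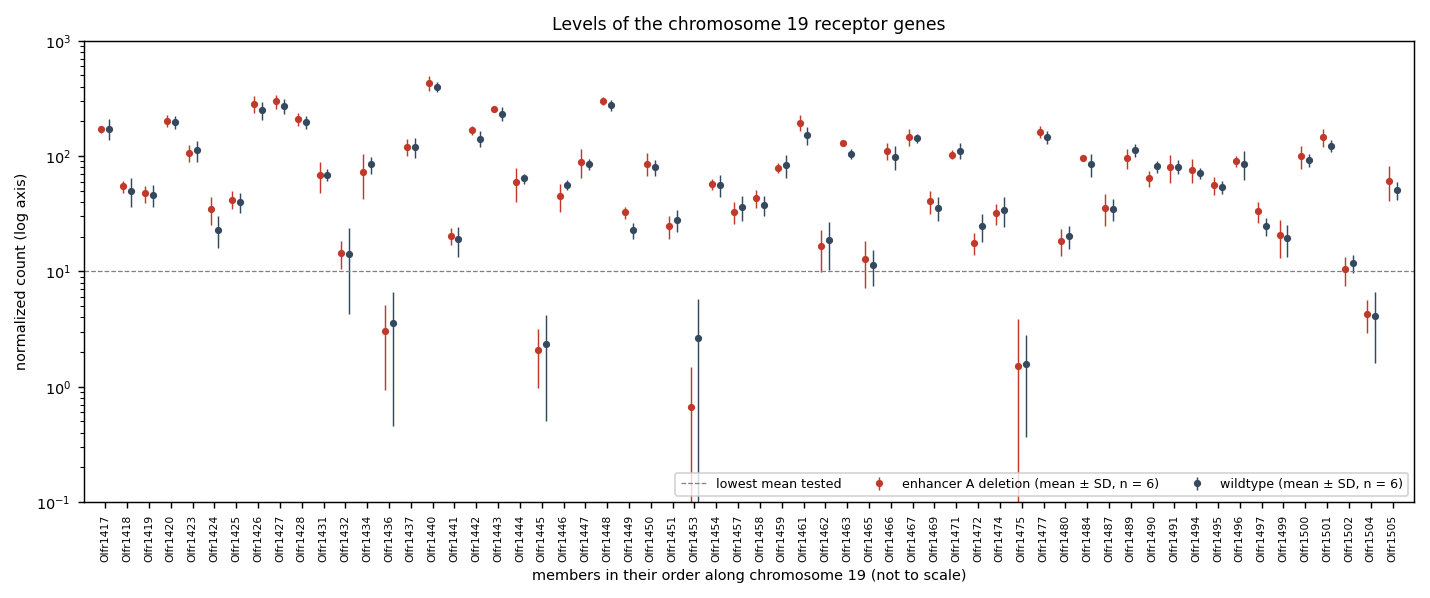
Mean normalized count ± SD of the 60 members (log axis, bars cut at 0.1) in their order along chromosome 19, deletion in red at the left of each pair and wildtype in dark blue at the right, n = 6 each. The highest pair is Olfr1440, at 431 in the deletion and 398 in wildtype, and 5 members lie under the dashed line at a mean of 10.

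The order of the members was nearly the same in both genotypes. Across the 60 genes the rank correlation between the deletion mean and the wildtype mean was 0.99. This describes genes of the same 12 libraries, which share exon length and paralog structure between the groups, and carries no test. Close relatives could sit at different levels. Olfr1417 stood at 47.7 ± 3.14 per kb in the deletion and 48.3 ± 9.88 per kb in wildtype, while its neighbour Olfr1418 stood at 13.5 ± 1.64 per kb in the deletion and 12.4 ± 3.51 per kb in wildtype.

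The 5 members that were not tested all had a mean under 10 normalized counts, the lowest at 1.56. They were Olfr1436, Olfr1445, Olfr1453, Olfr1475 and Olfr1504. The first 4 of these are annotated with a single exon of 924 to 1001 bp, which is about the length of a receptor's reading frame (924 to 1122 bp among members). Only 5 of the 60 gene models have a single exon, and the fifth, Olfr1502, was the lowest tested member, with 6.48 to 14.4 normalized counts in deletion libraries and 9.43 to 14.8 in wildtype libraries. Models with several exons had a median mean of 73.9 normalized counts, against 2.22 for single-exon models. Per kb of exon the medians were 21.6 and 2.22. Olfr1453 had 0 to 2 reads in deletion libraries and 0 to 6 in wildtype libraries. A difference was not detectable at such read numbers. Just below the threshold lay Olfr1504 (4.29 ± 1.38 in the deletion, 4.11 ± 2.51 in wildtype) and Olfr1436 (3.05 ± 2.11 in the deletion, 3.56 ± 3.11 in wildtype), and just above it Olfr1502 and Olfr1465.

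Promoter sequence is shown for the 4 members with several exons whose RefSeq transcript start lies within 100 bp of the outermost start in GENCODE, so that the window stands at the start of transcription as annotated. RefSeq windows (GRCm38.p6, 250 bases before to 50 after the start) exist for 56 of the 60 members. In 47 members with several exons the RefSeq start lies further inside the gene, by a median of 3355 bp, and those windows are not used. Capitals mark 3 words of the homeodomain kind, which Lhx2 can bind, searched on both strands. The palindrome among them is TAATTA, found in 2 of the 4 windows and 18.6% of receptor windows. The word ending in GA is TAATGA, found in 2 of the 4 and 28.8% of receptor windows. The word ending in TG is TAATTG, found in 2 of the 4 and 23.2% of receptor windows. The windows are Olfr1434 (chr19:12279604-12279903, plus strand), Olfr1437 (chr19:12325017-12325316, minus strand), Olfr1443 (chr19:12677916-12678215, plus strand) and Olfr1477 (chr19:13500296-13500595, plus strand), each written 5′ to 3′ on the strand of the gene.
Olfr1434: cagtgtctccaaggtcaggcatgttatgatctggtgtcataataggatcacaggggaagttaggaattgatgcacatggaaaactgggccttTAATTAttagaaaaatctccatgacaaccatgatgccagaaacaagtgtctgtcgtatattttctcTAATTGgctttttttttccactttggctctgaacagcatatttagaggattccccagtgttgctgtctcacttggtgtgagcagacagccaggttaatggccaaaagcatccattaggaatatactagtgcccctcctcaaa
Olfr1437: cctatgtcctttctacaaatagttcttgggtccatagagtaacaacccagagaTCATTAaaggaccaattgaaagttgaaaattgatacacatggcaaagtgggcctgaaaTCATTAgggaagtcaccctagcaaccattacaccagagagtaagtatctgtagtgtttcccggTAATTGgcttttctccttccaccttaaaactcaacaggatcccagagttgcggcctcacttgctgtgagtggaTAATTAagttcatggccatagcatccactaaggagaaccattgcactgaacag
Olfr1443: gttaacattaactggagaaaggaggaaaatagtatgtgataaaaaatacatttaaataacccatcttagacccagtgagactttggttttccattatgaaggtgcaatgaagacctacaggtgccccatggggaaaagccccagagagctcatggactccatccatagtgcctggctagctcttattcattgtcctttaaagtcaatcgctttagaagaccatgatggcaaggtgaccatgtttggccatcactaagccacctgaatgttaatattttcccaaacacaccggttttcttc
Olfr1477: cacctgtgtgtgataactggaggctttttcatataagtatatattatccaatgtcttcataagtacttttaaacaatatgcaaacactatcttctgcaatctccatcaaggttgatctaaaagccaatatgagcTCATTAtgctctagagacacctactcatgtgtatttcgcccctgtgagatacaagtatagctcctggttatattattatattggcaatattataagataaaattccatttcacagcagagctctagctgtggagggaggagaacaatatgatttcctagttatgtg

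At least 1 of the 3 words occurred in 3 of these 4 windows, against 19.9% of 32851 promoter windows of all genes and 53.8% of 944 windows of receptor genes. The median GC content was 35.0% in receptor windows and 52.7% over all promoters, and it ran from 35.7% to 43.0% in the 4 windows. The values for receptor windows, here and above, are over all 944, without the limit on the distance of the start. Such windows can lie inside the gene, as in the 47 members above, so the 4 windows are not set against like ones. The word TATAAA was in 0 of the 4, against 13.6% of all promoters and 41.2% of receptor windows. The windows of Olfr1434 and Olfr1437 were 62.1% identical, the highest of the 6 pairs, and the other pairs ran from 42.2% to 47.2%. In Olfr1434 and Olfr1437 TAATTG sits at -92 and -76 from the start. The presence of a word is a description of the letters and not of binding.

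None of the 4 genes behind these windows passed the test. Olfr1437 had 88.0 to 145 normalized counts in deletion libraries with a median of 120.2, and 86.6 to 157 in wildtype libraries with a median of 122. The interval of its log2 change was -0.31 to 0.31. Olfr1443 had 239.9 to 272 normalized counts in deletion libraries with a median of 252, and 182 to 262 in wildtype libraries with a median of 241. Olfr1477 had 145 to 194 in deletion libraries with a median of 157, and 113 to 165 in wildtype libraries with a median of 148. The log2 changes of Olfr1443 and Olfr1477 were 0.14 ± 0.09 and 0.16 ± 0.10 (adjusted p 0.792 and 0.789, limma).

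Olfr1434 differed from the other 3 in its spread. Deletion libraries 1, 4 and 5 held 98.3, 95.3 and 107 normalized counts, and deletion libraries 2, 3 and 6 held 41.3, 46.8 and 46.9. Wildtype libraries ran from 64.7 to 101 with a median of 82.4. The deletion libraries stood in a high and a low trio, and the low trio was below every wildtype library. The log2 change was -0.31 ± 0.24, with an adjusted p of 0.803 by limma, and depended on the libraries: it was -0.17 without deletion library 2, -0.45 without deletion library 5 and -0.02 over the 8 libraries where the predicted gene Gm10800 took 1% of reads or less. The split was singled out after its values were seen, and its source was not tested.

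The 8 members with an unadjusted p under 0.05 make up 14.5% of those tested, against 6.68% of all genes and 13.7% of the 839 other class II receptors tested. Of these, 6 had a higher estimate in the deletion, where the background is 3.49%, and 2 a lower one, where it is 3.2%. The split turned with the scaling: 1 was higher and 4 lower with values rescaled to the other class II receptors, and 3 were higher and 4 lower with values rescaled to the mature neuron markers. The same count was 8 by edgeR on recovered reads, where 6.67% of the 19373 genes reached it. By DESeq2, run without the limit on the mean, it was 5, where 3.83% of 46288 genes did. The shares of the 2 tools are over unlike sets of genes and are not set against each other. After adjustment both tools called 0 members, with edgeR calling 0.346% of 19373 genes and DESeq2 0.292% of the 30131 given an adjusted p. The authors' deposited table holds 5 members with an unadjusted p under 0.05 and 0 with an adjusted p under 0.05.

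Olfr1463 (ENSMUSG00000096365.4, 13231328 to 13236400) had the smallest p. Deletion libraries ran from 119 to 138 normalized counts with a median of 133, and wildtype libraries from 86.2 to 116 with a median of 104. The groups did not overlap, and of the 55 tested members this was the only one without overlap: 1 was apart and higher, against 0.145% of all genes, 0 were apart and lower, against 0.444%, and 0.588% of all genes were apart in either direction. The log2 change was 0.33 ± 0.09, with an interval of 0.13 to 0.52 and an adjusted p of 0.367 (limma). The authors' deposited table gives an adjusted p of 0.418 for it.

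Other members with higher estimates overlapped between genotypes. Olfr1449 had 28.0 to 37.8 normalized counts in deletion libraries (32.5 ± 3.88), and 19.5 to 29.7 in wildtype libraries (22.8 ± 3.64). Only wildtype library 4 reached into the range of the deletion libraries. Its log2 change was 0.50 ± 0.16 (adjusted p 0.593, limma). Olfr1461 had 153 to 234 in deletion libraries with a median of 189, and 109 to 176 in wildtype libraries with a median of 154. All 6 deletion libraries were above the wildtype mean, by a log2 change of 0.37 ± 0.13 (adjusted p 0.663, limma). Olfr1424 had the largest estimate of all, 0.58 ± 0.24, from 21.1 to 50.5 in deletion libraries and 12.7 to 30.6 in wildtype libraries. Its interval, 0.06 to 1.10, is 1 of the 2 that reach past 2-fold. Olfr1442 and Olfr1497 had log2 changes of 0.24 ± 0.11 and 0.42 ± 0.19 (adjusted p 0.744 each, limma).

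Members with lower estimates were fewer. Olfr1490 had 50.5 to 80.9 normalized counts in deletion libraries with a median of 63.4, and 68.6 to 92.9 in wildtype libraries with a median of 83.6. All 6 deletion libraries were below the wildtype mean, by a log2 change of -0.34 ± 0.13 (adjusted p 0.702, limma). Olfr1446 had 32.5 to 67.6 in deletion libraries with a median of 43.9, and 48.6 to 63.4 in wildtype libraries with a median of 56.5. Deletion library 5 was above every wildtype library there, and the log2 change was -0.35 ± 0.16 (adjusted p 0.744, limma). Olfr1472 had the most negative estimate, -0.44 ± 0.23, with 13.2 to 23.0 in deletion libraries and 16.2 to 32.7 in wildtype libraries (adjusted p 0.746, limma). It shares 17.8% of its 50-base windows with another receptor gene. Olfr1489 and Olfr1471 had log2 changes of -0.24 ± 0.14 and -0.10 ± 0.11, the second with 95.8 to 120.0 normalized counts in deletion libraries and 92.9 to 144 in wildtype libraries.

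**Figure D2:**
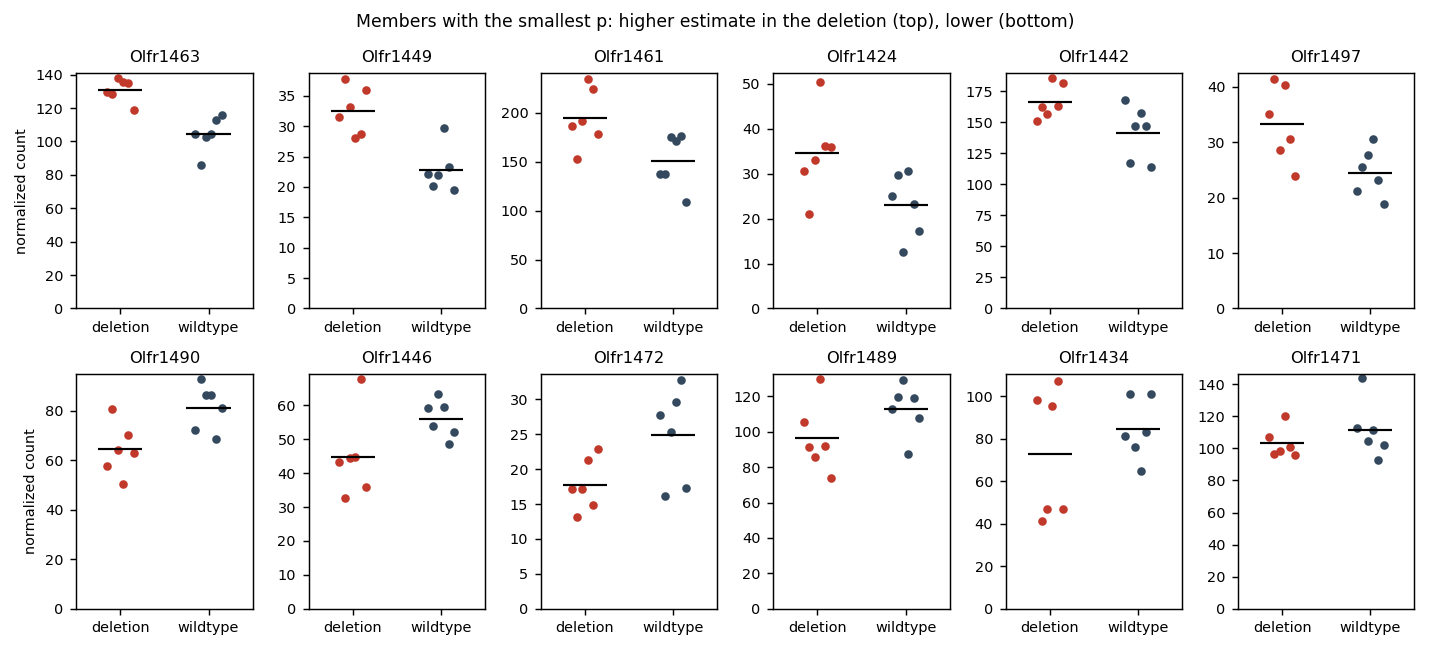
Normalized counts per library of the 6 members with the smallest p and a higher estimate in the deletion (top) and the 6 with a lower one (bottom), deletion at the left in red and wildtype at the right in dark blue, with the mean of 6 libraries as a bar. The groups are apart for Olfr1463 (119 to 138 against 86.2 to 116) and overlap for the other 11 members.

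Precision followed the level of a gene. The median half-width of the 95% interval was 0.46 on the log2 scale for the 19 members with a mean of 10 to 50 normalized counts, 0.35 for the 17 from 50 to 100 and 0.24 for the 19 above 100. Within groups, the SD of log2 values ran from 0.12 to 0.73 over members, with a median of 0.27, beside 0.27 for other class II receptors. The most variable were Olfr1432, Olfr1462 and Olfr1465, all of low level. Olfr1432 had 8.98 to 19.8 normalized counts in deletion libraries and 5.55 to 29.6 in wildtype libraries, and an interval of -0.57 to 1.08, the other that reaches past 2-fold. Olfr1462 had 8.34 to 25.5 in deletion libraries and 11.6 to 33.7 in wildtype libraries. Olfr1465 had 6.15 to 23.2 in deletion libraries and 7.19 to 18.1 in wildtype libraries. For these genes an estimate smaller than about the half-width of the interval could not be told from 0, even before adjustment.

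**Figure D3:**
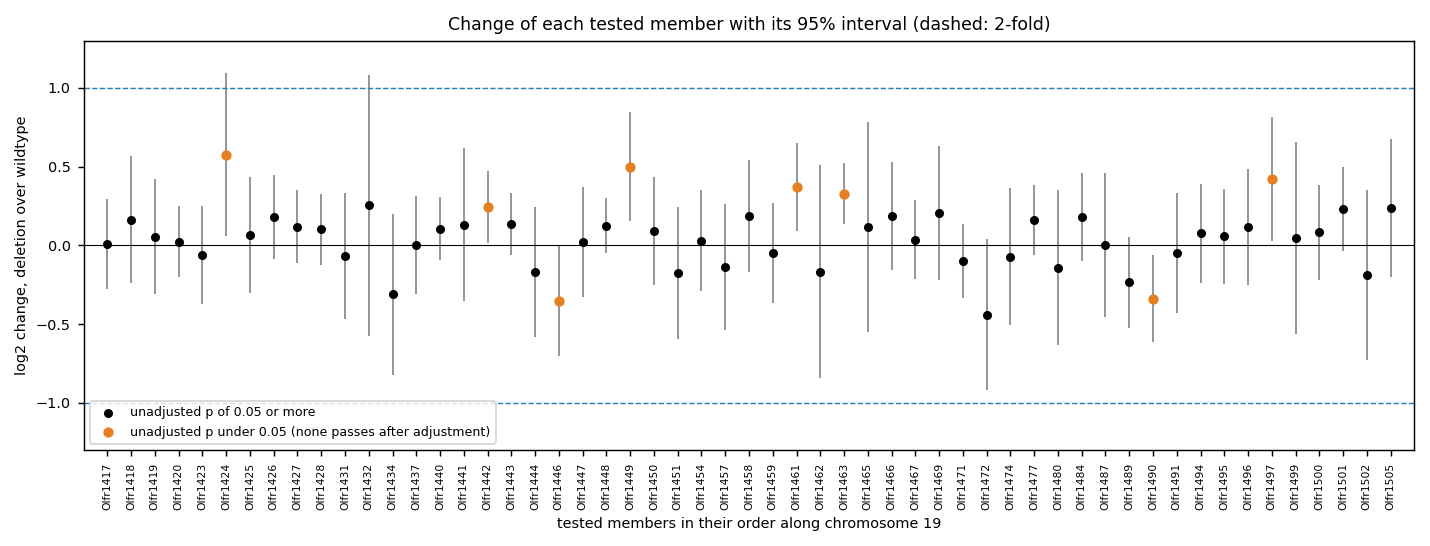
Log2 change (deletion over wildtype) of the 55 tested members with its 95% interval, in their order along chromosome 19. Points lie between -0.44 and 0.58 on both sides of 0 along the whole cluster, and 2 intervals, of Olfr1424 and Olfr1432, cross the dashed line of a 2-fold change.

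No block of the cluster held a gene that passed the test. The median log2 change was 0.08 over 16 tested members before Fam111a, 0.19 over the 2 between Glyat and Keg1, and 0.05 over the 37 after Zfp91; differences between blocks were not tested. At the 2 ends, Olfr1417 had 153 to 185 normalized counts in deletion libraries and 105 to 207 in wildtype libraries, and Olfr1505 had 37.0 to 96.4 in deletion libraries and 32.4 to 56.6 in wildtype libraries. Neither passed the test (log2 changes 0.01 ± 0.13 and 0.24 ± 0.21, adjusted p 0.989 and 0.817, limma). The estimate for Olfr1417 changed sign between settings, and that for Olfr1505 was 0.09 without deletion library 4, 0.11 without wildtype library 4 and 0.36 without deletion library 5. Of the 29 genes of other families in the span, 9 could be tested and 0 passed, with 0 at an unadjusted p under 0.05.

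Summed over the 60 members, deletion libraries ran from 5107 to 5853 normalized counts with a mean of 5413 ± 298, and wildtype libraries from 4652 to 5390 with a mean of 5111 ± 249. The deletion mean was 5.91% higher, and the groups overlapped. The higher deletion mean was not seen in the 4 libraries in which the predicted gene Gm10800 took over 1% of reads. There the mean was 5126 in 2 deletion libraries and 5160 in 2 wildtype libraries, too few to give a direction. In the other 8 it was 5557 ± 255 in 4 deletion libraries and 5087 ± 317 in 4 wildtype libraries. The 4 libraries high in Gm10800 also had a read in more genes, 36565 to 42218 against 28832 to 33895 in the other 8. The part of this in the sums was not tested. All class II receptors together summed to a 7.26% higher deletion mean, or 4.18% without wildtype library 6, and the part of the class II signal from chromosome 19 was 4.45% ± 0.28 in the deletion and 4.51% ± 0.18 in wildtype. In bulk tissue, a change in the number of neurons expressing a receptor and a change in receptor RNA per neuron cannot be told apart.

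**Figure D4:**
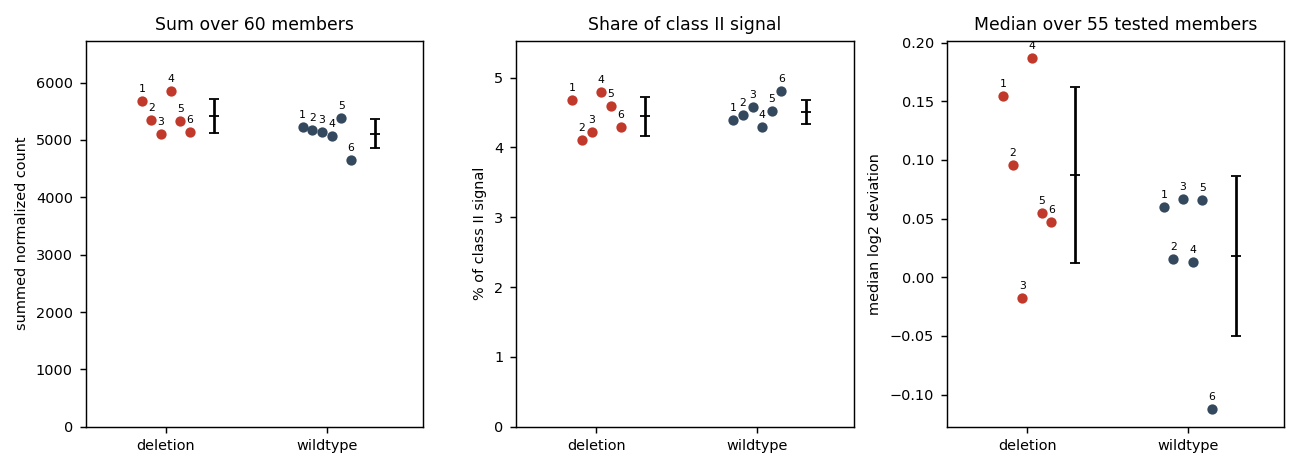
Per library, the summed normalized count of the 60 members, their share of the class II signal in percent, and the median over 55 tested members of the log2 deviation from the wildtype mean, with mean ± SD at the right of each group of 6; numbers name the library. The deletion and wildtype ranges overlap in every panel, from 5107 to 5853 against 4652 to 5390 for the sum, and wildtype library 6 is the lowest in the first panel and the highest in the second.

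Wildtype library 6 stood apart from the other 5 wildtype libraries. It was the lowest of the 12 libraries for 13 of the 55 tested members and the highest for 1, while deletion library 4 was the highest for 11 and the lowest for 1. Its class II sum was also the lowest, at 96770 against 112257 to 119101 in the other wildtype libraries, and its chromosome 19 share was 4.81%, beside 4.80% in deletion library 4. Without it, 33 members had a positive and 22 a negative estimate, against 38 and 17 with it. The split of all estimates also turned with the scaling. With values rescaled so that the other class II receptors summed alike in every library, 23 estimates were positive and 32 negative, and with values rescaled to the mature neuron markers 26 were positive and 29 negative.

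The median log2 change of 0.07 for chromosome 19 stands beside 0.08 for the 839 other class II receptors tested, 0.10 for the 256 on chromosome 2, 0.05 for the 67 on chromosome 10 and -0.02 for the 121 on chromosome 9. The number with an unadjusted p under 0.05 was 38 on chromosome 2, 17 on chromosome 9 and 4 on chromosome 10. None of these 3 groups held a gene past 5% after adjustment (limma), and the 2 class II genes that fell and 4 that rose lay outside all of these chromosomes. Differences between the clusters were not tested.

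**Figure D5:**
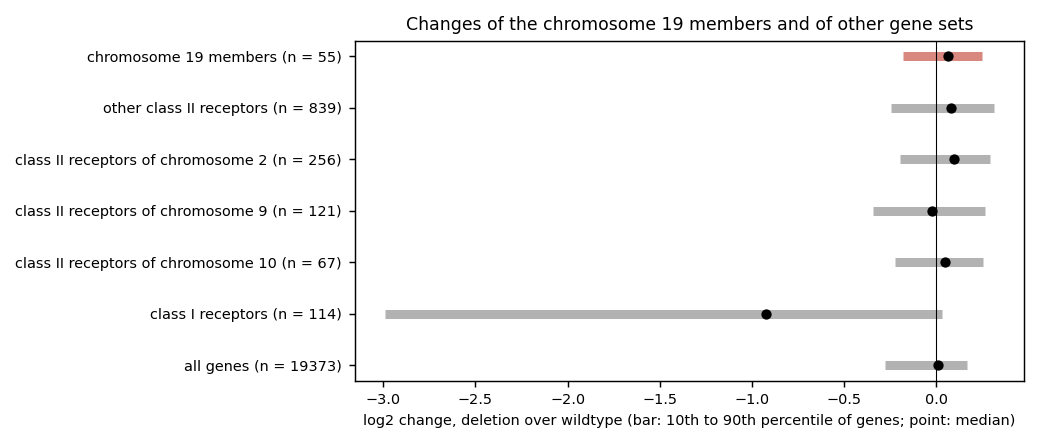
Log2 change (deletion over wildtype) of the chromosome 19 members in red and of other gene sets in grey: the bar spans the 10th to the 90th percentile of genes and the point is the median. The member bar, -0.18 to 0.25, lies with those of the other class II sets, while class I receptors reach down to -2.99.

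None of the genes listed for receptor choice, transport and signalling passed the test. Of 13 receptor choice regulators, 3 transport genes and 10 signalling genes, 0 passed in either direction (limma), against 0.372% of all genes. At an unadjusted p under 0.05 were 0, 0 and 1 of them, the last being Cngb1 at 0.19 ± 0.06 (adjusted p 0.543, limma). Positive estimates were 12 of 13, 3 of 3 and 8 of 10 in these lists, beside 52.6% over all genes. Lhx2 had a log2 change of 0.07 ± 0.06, Rtp1, which helps receptors to the cell surface, 0.13 ± 0.07, and Gnal, the G protein subunit of the olfactory cascade, 0.09 ± 0.07. Markers of the dorsal zone were 3 of 3 negative, 2 at an unadjusted p under 0.05, where the share over all genes is 6.68%. They were Robo2 at -0.19 ± 0.05 and Nqo1 at -0.22 ± 0.105 (adjusted p 0.347 and 0.744, limma). Acsm4, the remaining dorsal gene, was at -0.03 ± 0.11 (adjusted p 0.960, limma). Of 5 ventral genes 4 were positive and 1 negative, with Ncam2 at 0.01 ± 0.06 and 1 at an unadjusted p under 0.05, Nfix at 0.32 ± 0.10 (adjusted p 0.524, limma). Nrp2 was at 0.11 ± 0.08, Nfia at 0.0003 ± 0.09 and Nfib at -0.09 ± 0.08. Mature neuron markers were abundant, with 12 of 12 tested, 0 called and 1 at an unadjusted p under 0.05, again Cngb1. They summed to 185247 to 212655 normalized counts in deletion libraries and 171878 to 211450 in wildtype libraries. Of the 12, 11 had a positive estimate and 1 a negative one, with a median log2 change of 0.09. Among these 12, Adcy3 is also in the choice list, and Rtp1 and Rtp2 are in the transport list. Gnal, Cnga2, Cnga4, Cngb1 and Ano2 are also in the signalling list, so the counts of these lists are not independent. Omp, the protein of mature neurons, had 0.07 ± 0.10. Markers of other cell types ran from -1.35 ± 0.46 for Obp1a to 1.65 ± 0.99 for Bpifb9a, both of the gland list, with 0 called in any of these lists and no listed gene at 0. The first gene of each list, which does not stand for the others, was Gap43 of immature neurons (-0.01), Krt5 of basal cells (0.09), Cyp2g1 of supporting cells (0.11), Sox9 of Bowman's gland (0.07), Ascl3 of microvillar cells (-0.04), Foxj1 of ciliated cells (0.08), Ptprc of immune cells (-0.20), Hba-a1 of erythroid cells (-0.55), Bglap of bone (0.26) and Acta1 of muscle (-0.05). Summed levels overlapped between genotypes in each list. Those of the Bowman's gland list ran from 7795 to 32259 normalized counts in deletion libraries and from 9138 to 57481 in wildtype libraries. This sum is mostly Obp1a (means 10944 in the deletion and 27271 in wildtype) and Bpifb9a (7896 and 1994), while Sox9 averaged 291 and 278. It does not stand for the level of Sox9. At an unadjusted p under 0.05 were 1 gene each of 6 lists, Neurog1 of progenitors (0.51), Cyp1a2 of supporting cells (0.18), Obp1a of the gland, Dnah5 of ciliated cells (-0.29), Lyz2 of immune cells (0.25) and Hba-a1, and 0 of the immature neuron, basal cell, microvillar, bone and muscle lists. The part of any of these in the member values was not tested. Library depth ran from 13011763 to 23039733 recovered reads, of which 3846 to 6438 fell on the 60 members.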

How the data were processed

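Per the labels' protocols, olfactory mucosa was dissected, RNA was isolated on columns and ribosomal RNA-depleted stranded libraries were made. Tools listed by the submitters' processing notes are DESeq2 and STAR 2.6.0, with the build GRCm38.p6. The sources used here do not name the counter, its annotation, its strand setting or its treatment of reads matching several genes. Per the file headers, the authors deposited DESeq2-type normalized counts for 12 libraries and their mean, a never negative signal per gene. Their deposited log2 fold changes (wildtype over deletion, with standard errors), test statistic (a score) and p-values were used only where named.

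In each library at least 99.989% of values came within 0.01 of a whole number once divided by the value of a single read, so reads were recovered for edgeR 4.0.16, which called 67 genes, and DESeq2 1.42.0, which called 88. The test throughout was limma-trend 3.58.1 (R 4.3.3) on log2(value + 1), without covariates, for 19373 genes with a mean of at least 10, with Benjamini-Hochberg adjustment over all of them at 5%. This scale understates changes of low genes. The code was tested on simulated data. All p-values and intervals measure the spread between libraries, 1 per animal by the labels.

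Positions and exon lengths came from GENCODE M21, with 60 of 60 members matched by identifier, and promoters from RefSeq. Open reading frames are the longest over the transcripts of a gene. Class I was taken as Olfr543 to Olfr693 together with Olfr78, Olfr33 and Olfr64 to Olfr69, and every other numbered Olfr symbol as class II.

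Members and lists were chosen with earlier results of these data known. Named members were the 6 highest per kb, the 6 with the smallest p in each direction, the first and last tested in position, Olfr1440, the 2 on each side of the level threshold and the 3 most variable. The rule's pairs of most alike proteins could not be had, and open reading frames were compared instead. Each list's first gene was named, except 1 that is not reported here. List genes at an unadjusted p under 0.05 and the extremes of the marker lists were named after their values were seen.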

Additional observations from a re-analysis of the deposited data

Results flagged for a closer look

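For 60 sets of 6 libraries, the gap between the highest or lowest library and the next was divided by the whole range and set against Dixon's 95% critical value, passed by chance in roughly 1 set of 20. It was passed in 6 sets. Olfr1446 stood at 67.6 normalized counts in deletion library 5, against 32.5 to 44.8 in the other deletion libraries. Olfr1449 stood at 29.7 in wildtype library 4, against 19.5 to 23.2 in the other wildtype libraries. Olfr1505 stood at 32.4 in wildtype library 4, against 49.5 to 56.6 in the others, and Olfr1417 at 105 in wildtype library 6, against 175 to 207. Olfr1504, too low to test, stood at 6.99 in deletion library 6, against 3.43 to 4.48. The median log2 deviation of the tested members from the wildtype mean was -0.11 in wildtype library 6, against 0.013 to 0.067 in the other wildtype libraries. Wildtype libraries 4 and 6 each account for 2 of the 6.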

How the results depend on the processing

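No member was called in either direction under any of the 23 other settings: pseudocounts of 0.5 and 5, no filter or a minimum mean of 50, edgeR with TMM or DESeq2 size factors, DESeq2, the replicate block, rescaling to the other class II receptors or to the mature neuron markers, each library left out in turn, and only the 8 libraries low in Gm10800 (1% of reads or less). The smallest adjusted p of a member lay between 0.281 (without wildtype library 5) and 0.944 (the 8 libraries). The 8 libraries are not alike in Gm10800 itself. It took 0.0013% to 0.010% of reads in the 4 deletion libraries and 0.079% to 0.885% in the 4 wildtype libraries. Its log2 change was -6.74 there (adjusted p 0.0016, limma) and -4.86 over all 12 libraries (adjusted p 0.726, limma). The source of this difference was not tested. Both genotypes carry sample numbers 1 to 6, but deviations of same-numbered libraries from their group means correlated at -0.15 to 0.36 and 0 of 6 deletion libraries correlated best with their own number, so the numbers were not taken as pairs. With the number as a replicate block the smallest adjusted p was 0.344, 6 members had an unadjusted p under 0.05, and 71 genes of all were called, against 72. The count at an unadjusted p under 0.05, 8 as reported, was 4 with a minimum mean of 50, where 36 members are tested, 5 with DESeq2 and 5 after rescaling to class II. Leaving out 1 library gave 5 to 8, with 5 without deletion library 4 and 5 without wildtype library 6.

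The median log2 change became -0.037 with class II rescaling and -0.015 with neuron rescaling, and the summed signal -1.42% and -0.16%. The median of all genes was then -0.095 and -0.073, against 0.0087. Leaving out 1 library gave medians of 0.034 to 0.105 and sums 4.04% to 7.11% higher. The share of class II signal moved less than its spread in every setting, and lay between -0.13 and 0.0065 percentage points of difference when 1 library was left out. Of the 6 highest members per kb, 5 remained among the 6 highest without length scaling.

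Sign changes were limited to 45 of 980 single-gene estimates, and the cause was not tested. Olfr1417 was at -0.020 and -0.013 in edgeR, -0.012 in DESeq2, -0.094 with class II and -0.072 with neuron rescaling. Olfr1420 was at -0.081 and -0.058 under these rescalings, and Olfr1428 at -0.0017 with class II rescaling. In the 8 libraries Olfr1471 was at 0.019, Olfr1462 at 0.091, Bglap at -0.046, Krt5 at -0.024 and Ascl3 at 0.018. With class II and neuron rescaling, Lhx2 was at -0.034 and -0.011, Omp at -0.039 and -0.017, Sox9 at -0.033 and -0.011, Ncam2 at -0.092 and -0.070 and Foxj1 at -0.026 and -0.0032. With class II rescaling Gnal was at -0.019 and Krt5 at -0.013. Acta1 was at 0.0022 and 0.0069 in edgeR and 0.0072 in DESeq2. Leaving out 1 library at a time gave Olfr1417 -0.13 to 0.068, Olfr1420 -0.046 to 0.087, Olfr1462 -0.31 to 0.016, Olfr1465 -0.064 to 0.29, Ncam2 -0.021 to 0.048, Gap43 -0.078 to 0.067 and Acta1 -0.25 to 0.21. Olfr1434 was at -0.23 and -0.22 in edgeR and -0.22 in DESeq2. Leaving out 1 library put the class II sum 4.18% to 8.32% higher, an alternative chosen after seeing the data.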
